A study of Mus musculus with 6 samples.

Results

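The regions described here are places in the genome of mouse embryonic stem cells where a peak of Smad2 phosphorylated by the activated receptors (pSmad2) was listed after Activin and after DMSO, but not after SB. They were chosen by the peak lists that the authors called from the ChIP and input tags of all 3 treatments, so the differences in tags between those libraries are given as a description, with no test. The lists hold 1 position per peak on the mm9 assembly. An interval of 833 bp centred on the position was taken for Activin, the 468 bp ending at the position for DMSO and the 1110 bp ending at the position for SB. Intervals were joined where they overlapped by 1 bp or more, which gave 13017 regions, and 797 of these held Activin and DMSO intervals and no SB interval. These 797 regions are called members below. They had a median width of 833 bp, ranged from 833 to 2091 bp and came to 740 kb in all.

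The cells were the line E14 TG2A, cultured in chemically defined medium with serum replacement. All cultures, controls included, first spent 6 h in the receptor inhibitor SB-431542 (SB). They then spent 18 h in 25 ng/ml Activin, in DMSO diluted 1/5000 as the carrier control, or in 10 µM SB, and these treatments stand for high, endogenous and low signaling. Each treatment has 1 ChIP and 1 input library, all of 1 cell line, so no value below has a replicate check, and the identity of the cells could not be checked by marker levels here.

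Nodal and Activin bind receptor kinases that phosphorylate Smad2 and Smad3, which join Smad4 and enter the nucleus. Smad proteins bind the short word CAGAC weakly, and partners such as FoxH1, a forkhead protein that holds Smad2 on its own sites, set where they bind firmly. SB-431542 blocks the kinases, and DMSO-treated embryonic stem cells make Nodal of their own. A place that is bound with Activin and with DMSO but not with SB is one that would depend on that kinase activity, and the tags at the members were examined with this question in view.

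The sequences around the highest pileup of tags are shown for the tallest members and for the tallest members at genes of the pathway or genes the study singled out, to show where the words counted later are present and where they are absent. Each is 200 bp of the NCBIM37 sequence, which is mm9, on the plus strand. Capitals mark CAGAC or its reverse complement GTCTG, and the FoxH1 words AATCCACA and AATACACA or their reverse complements TGTGGATT and TGTGTATT.
Lefty1 member, chr1:182854912-182855111: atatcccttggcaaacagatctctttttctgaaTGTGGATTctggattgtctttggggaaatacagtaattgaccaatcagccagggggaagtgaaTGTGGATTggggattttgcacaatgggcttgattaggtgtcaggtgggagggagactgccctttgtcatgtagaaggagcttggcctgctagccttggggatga
Lefty2 member, chr1:182818933-182819132: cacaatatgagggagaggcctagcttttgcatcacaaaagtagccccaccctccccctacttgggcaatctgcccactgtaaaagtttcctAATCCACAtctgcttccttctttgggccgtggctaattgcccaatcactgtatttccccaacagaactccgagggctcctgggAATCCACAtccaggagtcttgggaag
Ftl1 member, chr7:52712666-52712865: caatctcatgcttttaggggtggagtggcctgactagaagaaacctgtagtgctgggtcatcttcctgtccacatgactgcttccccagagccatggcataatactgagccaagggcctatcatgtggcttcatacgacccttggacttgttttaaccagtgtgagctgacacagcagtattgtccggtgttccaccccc
Epha2 member, chr4:140840515-140840714: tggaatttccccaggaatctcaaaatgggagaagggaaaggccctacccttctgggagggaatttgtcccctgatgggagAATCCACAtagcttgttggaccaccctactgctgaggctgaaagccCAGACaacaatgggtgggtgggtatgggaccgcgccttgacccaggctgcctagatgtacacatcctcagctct
Cd83 member, chr13:44114113-44114312: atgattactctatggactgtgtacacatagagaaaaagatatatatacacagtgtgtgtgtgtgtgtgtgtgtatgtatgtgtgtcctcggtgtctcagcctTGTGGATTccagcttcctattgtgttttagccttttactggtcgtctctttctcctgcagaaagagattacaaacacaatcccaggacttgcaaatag
Nphs1 member, chr7:31248711-31248910: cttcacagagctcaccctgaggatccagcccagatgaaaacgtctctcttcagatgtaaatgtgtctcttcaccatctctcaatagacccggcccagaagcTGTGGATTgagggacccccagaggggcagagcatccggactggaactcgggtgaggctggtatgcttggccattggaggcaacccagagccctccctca
Radil member, chr5:143022511-143022710: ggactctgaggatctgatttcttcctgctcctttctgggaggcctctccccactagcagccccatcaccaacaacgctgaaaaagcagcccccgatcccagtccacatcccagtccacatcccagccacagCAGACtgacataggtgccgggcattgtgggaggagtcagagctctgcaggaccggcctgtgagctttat
Spsb1 member, chr4:149311162-149311361: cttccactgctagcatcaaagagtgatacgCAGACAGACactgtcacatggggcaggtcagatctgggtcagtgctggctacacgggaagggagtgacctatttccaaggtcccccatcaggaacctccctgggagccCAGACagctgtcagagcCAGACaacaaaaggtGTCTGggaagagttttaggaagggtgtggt
Bcar3 member, chr3:122137032-122137231: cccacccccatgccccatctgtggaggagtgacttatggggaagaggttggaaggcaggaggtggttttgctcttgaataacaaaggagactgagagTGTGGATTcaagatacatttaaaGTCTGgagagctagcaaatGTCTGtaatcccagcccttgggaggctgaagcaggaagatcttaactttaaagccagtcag

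In Lefty1 the FoxH1 words lay at -63 and 0 bp from the highest pileup and in Lefty2 at -5 and 78 bp, counted along the chromosome to the middle of the word. The word lay at -16 bp in Epha2, 6 bp in Cd83, 5 bp in Nphs1 and 1 bp in Bcar3. The Spsb1 member held 5 CAGAC words in this stretch and no FoxH1 word, the Radil member 1 CAGAC, and the Ftl1 member neither word. Each of these members that held a FoxH1 word thus had one next to its highest pileup.

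Tags were counted in a member if the middle of their fragment, 100 bp inside the 5′ end, lay there, and are given as raw tags or as CPM, tags per 1000000 tags of the library. Library sizes were between 9757735 (SB) and 13148559 (Activin) tags for ChIP and between 10516699 (SB) and 12708225 (DMSO) for input. Between 19.9% and 24.6% of ChIP tags and between 5.64% and 6.94% of input tags shared position and strand with another. Intervals in brackets are 95% Clopper-Pearson intervals. They cover counting error only, and PCR copies make even that too narrow. In 4 members an input library held over 100 tags, at Gm10801, Gm10718, Gm17379 and Chl1. At Gm10801 the 3 ChIP libraries held 3699, 3279 and 3000 tags and the inputs 4518, 4999 and 4271, so that no ChIP library exceeded its input there.

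The members held a median of 36 Activin, 36 DMSO and 16 SB ChIP tags, against 9, 11 and 10 input tags in the same order. In CPM the ChIP medians were 2.74, 2.80 and 1.64. Activin and DMSO were thus nearly level in the typical member and SB was lower. Fewer cells with bound pSmad2 and less of it bound in each cell cannot be told apart in bulk chromatin. The median ratio of Activin to DMSO was 1.01 (quartiles 0.805 and 1.24) and that of SB to DMSO 0.66 (quartiles 0.402 and 0.929). Summed over the members, SB held 0.771 times the DMSO level in CPM (0.759 to 0.784), and 0.708 times (0.695 to 0.721) without the 4 members of high input. Over the 942 regions of all 3 lists the median ratio of SB to DMSO was 1.04, and the sum 1.27 (1.26 to 1.28), or 1.17 (1.16 to 1.18) in the 930 with no input over 100 tags.

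A ratio of at least 1.5 between libraries, with a lower count under 3 raised to 3, served as the call. Of the members, 411 (51.6%, 48.0 to 55.1) had SB at most 1/1.5 of DMSO, as 36.6% of all merged regions did, and 398 had SB at most 1/1.5 of Activin, where the background was 23.2%. The opposite, SB at least 1.5 times DMSO, held for 29 members against 22.0% of all regions. Since the absence of an SB peak chose the members, nothing is read from these counts. Activin was at least 1.5 times DMSO in 101 members (12.7%; 17.4% of all regions) and at most 1/1.5 of it in 76 (9.54%; 37.4% of all regions). Activin exceeded its input 1.5 times in 790 members (background 64.3%) and DMSO its input in 778 (background 74.6%), which is how they were listed.

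The order of the 3 ChIP libraries varied among the members and is given as a description too, beside the share over all merged regions. The order Activin, then DMSO, then SB was found in 326 members (40.9%; 14.1% of all regions), and DMSO, Activin, SB in 228 (28.6%; 20.0% of all regions). SB lay above 1 of the other treatments in 121 (15.2%; 30.2% of all regions) and above both in 122 (15.3%; 35.3% of all regions). In 94 members SB held at most 1/4 of the DMSO level (11.8%; 5.07% of all regions). The SB ChIP library was at least 1.5 times its own input in 485 members, a share of 60.9% that was close to the 61.0% of all regions. SB was both at most 1/1.5 of DMSO and under 1.5 times its input in 249 members (31.2%; 27.3% of all regions), and at most 1/1.5 of DMSO but at least 1.5 times input in 162 (20.3%; 9.30% of all regions). The input libraries differed too, with SB input at least 1.5 times DMSO input in 218 members (22.7% of all regions) and the reverse in 106 (16.5% of all regions).

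The fixed length of the SB intervals bears on these counts. Over the 4759 listed SB positions, 75.8% of the SB ChIP tags within 500 bp lay before the position, against 50.6% of the Activin tags around Activin positions. A wide SB peak may reach further back than 1110 bp. When the listed number of SB tags was counted back from each SB position, over at most 10 kb and with 1 tag per position and strand, 131 of the 797 members lay inside the stretch so covered. The SB peaks that reached them had a median of 118 listed tags, against 28 in the whole SB list. Of the 70 members with at least 50 SB tags and no high input, 58 were reached. In the reached members the median ratio of SB to DMSO was 0.982, and SB was at least 1.5 times input in 126 (96.2%). In the other 666 members the median was 0.566, with SB at most 1/1.5 of DMSO in 396 (59.5%, 55.6 to 63.2) and at least 1.5 times input in 359 (53.9%). This split was made after the values were seen and uses SB tags, so these numbers describe it and do not test it.

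The members nearest to the limit of the rule were much like the regions just beyond it. Just inside, the Trim41 member lay 7 bp from an SB interval and held 26 Activin, 35 DMSO and 15 SB tags, and the Rpl27a member, 13 bp away, held 61, 52 and 63. The Zfp651 member, 14 bp away, held 43, 56 and 32. Just outside, the region at Gm1305, with 5 bp of overlap, held 72, 61 and 52 tags, that at Dnajb12, with 7 bp, 66, 71 and 76, and that at Utf1, with 9 bp, 101, 129 and 65. An SB interval lay within 100 bp of 21 members and within 1 kb of 144.

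Lefty1 and Lefty2, neighbouring genes on chromosome 1 for secreted antagonists of Nodal, had the tallest members outside the high inputs. The Lefty2 member (chr1:182818617-182819789), 4207 bp upstream of the start site, held 703 Activin, 442 DMSO and 19 SB ChIP tags against 23, 17 and 11 input tags. The Lefty1 member (chr1:182854598-182855687), 10142 bp upstream, held 687, 495 and 36 against 21, 20 and 18. In each the Activin library was highest, and SB ChIP was 1.86 and 2.16 times its input in CPM. SB over DMSO was 0.0567 (0.0338 to 0.0897) at Lefty2 and 0.0960 (0.0665 to 0.135) at Lefty1, and Activin over DMSO 1.56 and 1.36. With 1 tag per position and strand the Lefty2 value was 1.42, under the 1.5-fold call. The members cover the sequences shown above with 2 FoxH1 words each.

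Further members with this order stood at genes that the study had assayed or singled out on these samples, so their direction is not independent evidence. The member in a Radil intron (chr5:143022195-143023027) held 238 Activin, 88 DMSO and 11 SB tags against 6, 14 and 4 input tags. Radil encodes an effector of the GTPase Rap1. At Nphs1, the gene of the slit-diaphragm protein nephrin, an exon member held 188, 104 and 20 tags against 13, 11 and 16. Bcar3, an adaptor protein gene, had an intron member of 106, 73 and 8 tags against 8, 5 and 5. Activin over DMSO ranged from 1.42 at Bcar3 to 2.65 at Radil, and SB over DMSO from 0.145 at Bcar3 to 0.254 at Nphs1. At all 3 the SB ChIP library held 20 tags or fewer and Activin stood above DMSO.

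Epha2, an ephrin receptor gene, was the nearest start site of 6 members, the most of any gene. The tallest lay 16541 bp upstream and held 205 Activin, 160 DMSO and 42 SB tags against 18, 34 and 11 input tags, with SB over DMSO at 0.346 (0.241 to 0.489). Among the members in or within 10 kb of Epha2, SB over DMSO was between 0.451 and 0.812. A member 233658 bp downstream of Cd83, the start site nearest to it, held 167, 133 and 13 tags against 9, 8 and 9, so a site far from any coding gene had one of the lowest ratios among the tall members, 0.129 (0.0669 to 0.228).

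In other tall members the SB level in CPM stood closer to DMSO. CPM is a share of each library and not an absolute amount of bound pSmad2. The members held 0.296% of the DMSO and 0.229% of the SB ChIP tags. The member in an exon of Iffo1, 3893 bp from the start site of the glycolytic gene Gapdh, held 169 Activin, 260 DMSO and 205 SB tags against 11, 16 and 25 input tags. The member 2489 bp downstream of the start site of Ftl1, the ferritin light chain gene, held 164, 254 and 196 against 15, 19 and 19. In these Activin was the lowest of the 3, and SB over DMSO was 1.04 (0.862 to 1.25) and 1.02 (0.841 to 1.23). Each lay inside the stretch of a listed SB peak, of 738 tags at Gapdh and 592 at Ftl1. The member at the start site of Znfx1 held 139, 173 and 106 tags against 23, 21 and 10, and was reached as well.

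**Figure D1:**
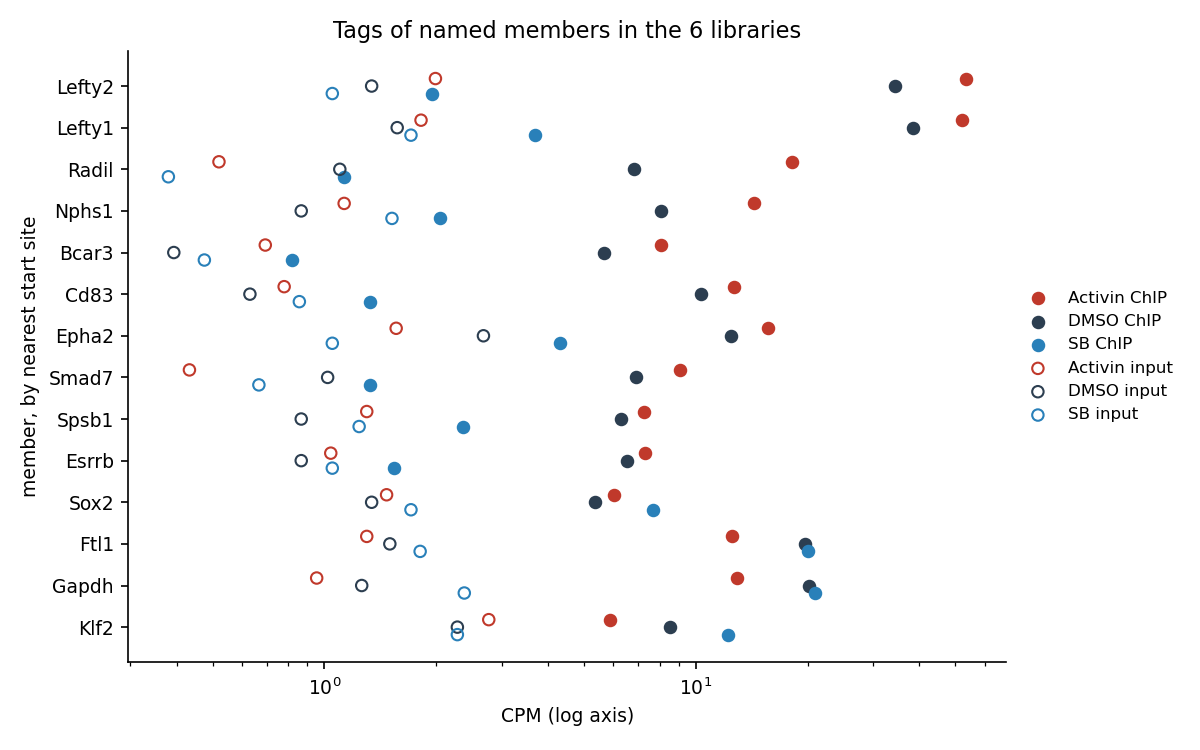
CPM on a log axis in the ChIP (filled) and input (open) libraries of Activin, DMSO and SB are plotted for 14 named members, each the member with most DMSO tags at its nearest start site. At Lefty1, Lefty2 and Radil the SB ChIP point lies nearer to the inputs than to the other ChIP points, and at Sox2, Ftl1, Gapdh and Klf2 it lies with or above the other ChIP points.

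Inhibitors that act against the pathway from within the cell had the highest share of genes near a member among the lists. These lists were chosen with earlier results of these data known. Of 11 measured genes for feedback inhibitors and corepressors, 8 had a member in them or within 10 kb (72.7%), whereas 4.06% of 22208 coding genes did. The genes were Smad7, Smad6, Pmepa1, Smurf2, Ski, Skil, Tgif1 and Spsb1. Of these, Smad7, Pmepa1, Ski, Skil and Spsb1 are also among the genes the study assayed or singled out on these samples. The share is therefore not independent evidence. Smad7 is an inhibitory Smad, and its member 6475 bp upstream held 119 Activin, 89 DMSO and 13 SB tags against 5, 13 and 7 input tags. SB over DMSO was 0.193 (0.0988 to 0.347), and Activin over DMSO 1.31. The intron member of Spsb1, a SOCS-box protein gene, held 95, 81 and 23 tags against 15, 11 and 13 and showed little step between Activin and DMSO. Its SB over DMSO was 0.375 (0.225 to 0.602).

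At Pmepa1, whose product sequesters Smads, an intron member held 60, 49 and 10 tags against 7, 13 and 14, so SB was at or below input. At the corepressor gene Skil, a member 739 bp from the start site held 37, 49 and 17 against 8, 9 and 6, with DMSO the highest. The members of Ski (56, 37 and 20 tags), Tgif1 (39, 37 and 14) and Smurf2 (26, 22 and 13, nearest start site Ccdc45) had SB as the lowest of the 3 in tags. The intron member of Smad6 held 41, 28 and 25 tags against 11, 11 and 12, and its SB over DMSO of 1.18 had an interval from 0.659 to 2.10. Smad6 was the single gene of the 8 whose member did not have a lower CPM in SB than in DMSO. Scaled by GC content as described below, the Smad6 ratio was 0.984, so this exception was not kept.

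Of the 9 ligand and coreceptor genes, Nodal and Tdgf1, the coreceptor Cripto, had a member (22.2%). The Tdgf1 intron member held 81, 56 and 22 tags against 11, 23 and 20, with SB over DMSO at 0.519 (0.301 to 0.863), and the Nodal member 38, 30 and 13 against 6, 9 and 7, with SB over DMSO at 0.572. In the 400 bp around the pileup these ratios were 0.880 and 0.849. Of the 6 antagonists Lefty2 had one within 10 kb. None of the 10 receptor and Smad genes, the 15 BMP and Id genes or the 10 trophectoderm genes had a member within 10 kb. None of the 6 Smad2 partners did either. Foxh1, Bmpr2 and Hand1 had one within 50 kb. Over all coding genes the share was 4.06% within 10 kb and 8.78% within 50 kb. At such shares, lists of 6 to 15 genes would often hold none, so nothing is read from these absences. Of 14 Wnt genes 1 had a member (7.14%), Wnt3, where 31, 28 and 6 tags stood against 10, 9 and 6. Fgf15, Etv5 and Fgfr2 of 14 FGF genes had members. Those counted for Fgfr2 lie in a very long gene model of this annotation and are nearer to Chst15 and Ctbp2. The list of genes the study assayed or singled out had members at 17 of 29 (58.6%). The study picked them on these same samples, so this share is not independent evidence.

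Pluripotency genes had members of several kinds. Of 17 measured genes 6 had a member within 10 kb (35.3%), against 4.06% of all coding genes. The member 1998 bp upstream of Pou5f1, the Oct4 gene, held 57 Activin, 49 DMSO and 19 SB tags against 16, 20 and 16, with SB over DMSO at 0.512 (0.285 to 0.885). The member 4870 bp upstream of Nanog held 30, 25 and 4 against 8, 9 and 13, so SB had fewer tags than its input. A second Nanog member, in an exon, held 33, 29 and 16 against 13, 12 and 12, with SB over DMSO at 0.728 (0.369 to 1.39). In an intron of Esrrb, an orphan nuclear receptor gene, a member held 96, 84 and 15 against 12, 11 and 11, with SB over DMSO at 0.236 (0.126 to 0.411). Another intron member, 4789 bp from the Esrrb start site, held 33, 38 and 27 against 11, 15 and 18, and its ratio was 0.938 (0.551 to 1.58). The Sox2 member, 80 bp from its start site, held 79, 69 and 75 against 17, 17 and 18, and here SB over DMSO was 1.43 (1.02 to 2.02), but 1.04 scaled by GC content as described below and 0.849 in the 400 bp around the pileup. Klf2 had a member at its start site with 64, 87 and 141 tags against 21, 34 and 26, where SB was the highest library. Its SB over DMSO was 2.14, and 1.21 with GC scaling. The Sox2 and Klf2 start-site members and the taller Esrrb member were each reached by a listed SB peak. At Zfp42, the Rex1 gene, SB over DMSO ranged from 0.344 to 1.23 over 3 members.

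The largest steps from DMSO to Activin were found at members of modest height. The Gm6104 member held 55 Activin, 14 DMSO and 1 SB tags, and Activin over DMSO was 3.85, with SB over DMSO at 0.0943 (0.00223 to 0.620) from that 1 tag and 0.283 with the count raised to 3. The 2210011C24Rik member held 102, 30 and 20 tags, and its SB ChIP library equalled the SB input of 20. The Ccrl1 member held 143, 45 and 8 tags and had 4 FoxH1 words and 6 CAGAC words in 300 bp. Pigk (65, 22 and 24 tags) and Defb41 (69, 24 and 5) completed the 5 highest, and each of the 5 held at least 1 FoxH1 word. The 5 lowest were at Hist1h2ae, a replication-dependent histone gene, with 27, 74 and 47 tags, Fastk with 28, 57 and 24, Olfr1163 with 15, 30 and 9, Yy1 with 19, 37 and 8, and Tardbp with 19, 37 and 15. Of these the Olfr1163 member held a FoxH1 word. The highest ratios of SB to DMSO were 2.30 at Prr12 (77, 54 and 94 tags), 2.14 at Klf2, 1.99 at Sphk2, 1.90 at Mepce and 1.81 at Hnrnpab, and each of these was reached by a listed SB peak. With GC scaling the 5 ratios were 1.43, 1.21, 1.45, 1.59 and 1.42, and Mepce, the one still past 1.5, was at 1.46 with 1 tag per position and strand.

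Words were counted on both strands in the 300 bp around the highest pileup, which the rule did not use. A FoxH1 word was present in 146 members (18.3%, 15.7 to 21.2) and in 5.17% of all merged regions (4.80 to 5.56). It was present in 7.47% of regions in the Activin list only, 4.32% of those in the DMSO list only, 2.00% of those in the SB list only and 2.87% of those in all 3 lists. Neighbouring regions share loci and the intervals cover counting error only, so these shares are set side by side and not tested. The classes also differed in peak height. Median listed tags were 34 for Activin and 24 for DMSO in the members. They were 18 in regions of the Activin list only, 13 in those of the DMSO list only, and 48 and 40 in those of all 3 lists. Each form of the word contributed, AATCCACA in 74 members (9.28%; 2.36% of all regions) and AATACACA in 73 (9.16%; 2.85% of all regions). Among the 666 members that no listed SB peak reached the share was 21.2% (18.1 to 24.5), and among the 131 reached it was 3.82% (1.25 to 8.68).

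The FoxH1 words lay under the pileup. In the 50 bp on either side of it they occurred 0.125 and 0.133 times per 100 bp, while between 300 and 500 bp away no bin of 50 bp exceeded 0.0226. Regions of the Activin list only had 0.0414 and 0.0373 at the centre, and regions of all 3 lists 0.0191 and 0.0170. CAGAC occurred in 528 members (66.2%, 62.8 to 69.5) and in 57.4% of all regions (56.6 to 58.3), and 2 or more CAGAC words in 31.2% against 22.9%. In regions of the Activin list only, CAGAC occurred in 59.3%, and 2 or more CAGAC words in 25.4%. Its density in the members was 0.537 and 0.499 per 100 bp in the central bins and between 0.211 and 0.316 in the bins 300 to 500 bp away. The bare word CAGA was in 98.2% of members and 97.7% of regions and so told little apart.

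**Figure D2:**
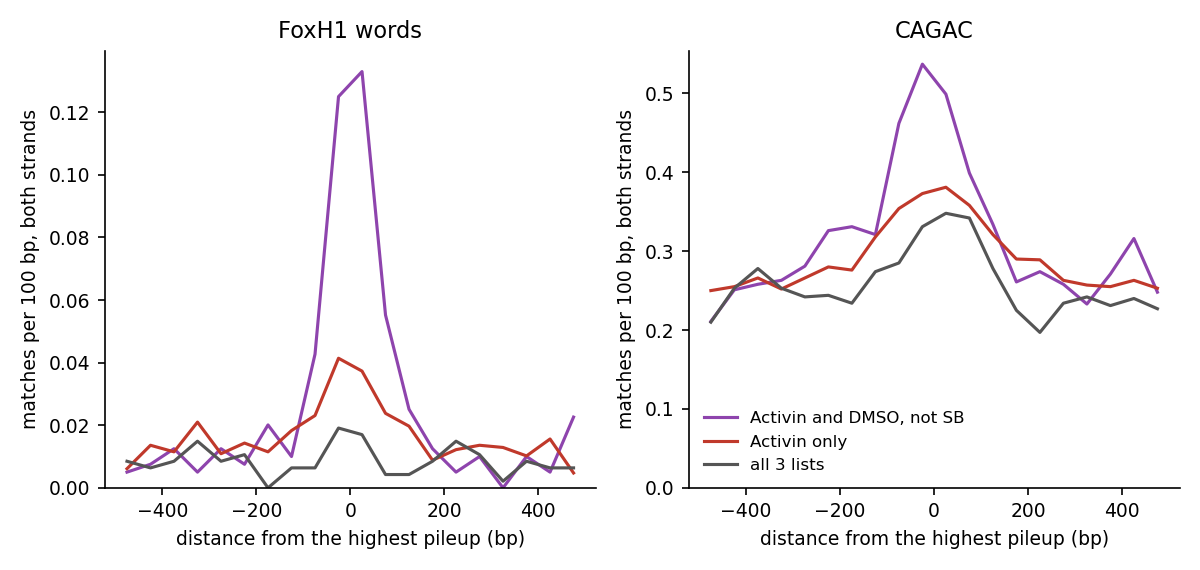
Matches per 100 bp of the FoxH1 words (left) and of CAGAC (right), both strands together, are plotted in bins of 50 bp against the distance from the highest pileup for the members, regions of the Activin list only and regions of all 3 lists. The FoxH1 density of the members is 0.133 just after the pileup, and that of regions in all 3 lists is 0.0170 there.

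Among other factors of embryonic stem cells, the Oct4 octamer ATGCAAAT was in 26 members (3.26%, 2.14 to 4.74; all regions 1.64%) and the Esrrb word TCAAGGTCA in 26 (3.26%; all regions 1.41%). The Sox2 word CATTGTT was in 4.89% against 4.32%, the Klf word GGGTGTGG in 4.14% against 3.37%, the Tead word GGAATGT in 6.27% against 4.41%, and the T-box word AGGTGTGA in 0.753% against 1.35%. For Sox2, Klf and T-box the interval of the members included the share of all regions. In regions of the Activin list only, the octamer was in 2.24%, inside the interval of the members, and the Esrrb word in 1.7%. A match is only these letters in the window and no evidence of a bound protein.

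The ChIP ratios of members with a FoxH1 word differed in median from those of the rest, though the quartile ranges of SB to DMSO overlapped. Their median ratio of SB to DMSO was 0.344 (quartiles 0.211 and 0.513), against 0.728 (quartiles 0.483 and 0.976) in the 651 members with none. The median of Activin to DMSO was 1.27 against 0.955. SB was at most 1/1.5 of DMSO in 123 of 146 (84.2%) and in 288 of 651 (44.2%), and Activin at least 1.5 times DMSO in 51 (34.9%) and 50 (7.68%). The typical member with the word held 40.5 Activin, 30 DMSO and 8 SB tags and 6 SB input tags. SB was at least 1.5 times its input in 66 of the 146 (45.2%) and in 419 of the 651 (64.4%), and in 61.0% of all regions. The 7 members with 2 or more words, which include Lefty1, Lefty2 and Ccrl1, had a median SB to DMSO ratio of 0.124. CAGAC in the absence of a FoxH1 word went with smaller steps, with medians of 0.692 in 421 members that held it and 0.792 in the 230 that held neither word. These are ratios of the libraries that chose the members and are not tested. The group with no FoxH1 word also holds most of the 131 members reached by a listed SB peak, whose median SB to DMSO ratio was 0.982. Of those 131 members 5 held the word, and medians by word without them are not given here.

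Base composition moved with these ratios and is given beside them. The SB ChIP library held relatively more tags at high GC. Outside all regions the ratio of SB to DMSO expected from GC was 0.907 for members under 45% GC and 1.27 for those of 60% or more. The observed medians were 0.513 and 1.13. Scaled by this expectation, the median over all members was 0.623, with 0.342 where a FoxH1 word was present and 0.68 where it was not. Between 45 and 50% GC the medians, unscaled, were 0.355 with the word in 47 members and 0.596 without it in 167, and between 50 and 55% they were 0.386 in 43 and 0.654 in 180. In both ranges the median was lower with the word. What part base composition, location or nearness to a listed SB peak has in the difference was not tested.

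The members were spread over promoters, introns and places far from genes. The highest pileup was within 1 kb of a coding start site in 137 members (17.2%, 14.6 to 20.0), in an exon in 91, in an intron in 235 (29.5%), within 10 kb of a gene in 157 (19.7%) and over 10 kb from any coding gene in 177 (22.2%, 19.4 to 25.3). In the regions of all 3 lists 28.3% lay at start sites (25.5 to 31.3) and 11.1% over 10 kb away (9.21 to 13.3), and of all merged regions 18.8% and 13.9%. Neighbouring regions share loci, so these shares are set side by side and not tested. The median distance to the nearest start site was 8826 bp, with quartiles of 2233 and 33188 bp, and 77 members lay over 100 kb away. Their nearest genes numbered 710, of which 69 had more than 1 member, and 107 members lay within 10 kb of another.

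The ratio of SB to DMSO varied with location. Its median was 0.973 at start sites, 0.903 in exons, 0.536 in introns, 0.691 within 10 kb of genes and 0.424 further out. Scaled by GC content the medians were 0.819, 0.766, 0.546, 0.659 and 0.440, a narrower range in the same order at its ends. SB was at most 1/1.5 of DMSO in 22 of 137 members at start sites (16.1%) and in 143 of 177 over 10 kb from genes (80.8%). Of the members at start sites 36 were reached by a listed SB peak, and of those over 10 kb from genes 7. Over 10 kb from genes the median was 0.227 in 54 members with a FoxH1 word and 0.516 in 123 without it. Few FoxH1 words lay at start sites, in 6 members, whose median ratio was 0.471. In the 520 members elsewhere that lacked the word the median was 0.654, and in the 140 that had it 0.337.

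**Figure D3:**
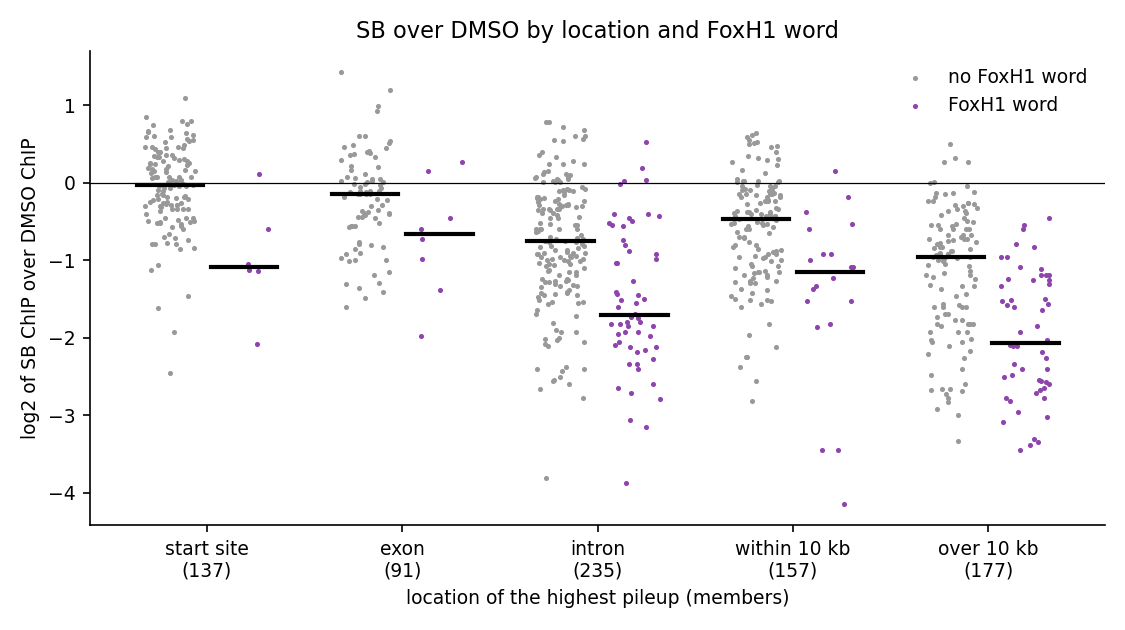
The log2 ratio of SB to DMSO ChIP CPM of each member is plotted by the location of its highest pileup, with members that hold a FoxH1 word beside those that do not and a black bar at each median; the number of members is under each location. The grey points at start sites centre on 0 and those over 10 kb from genes lie mostly below it, and at each location the bar of members with the word lies below that of members without it (ratios of 0.306 and 0.596 in introns); counts under 3 were raised to 3.

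The offset between the strands at members was larger in each ChIP library than in any input, Activin input included. The pileup was located with the ChIP tags, extended to 200 bp, and not with the input tags. Plus-strand tags before it and minus-strand tags after it are therefore favoured in the ChIP libraries. The values are given as a description, and nothing is read from the larger offset or from the order of the treatments. Minus-strand tags lay a median of 132 bp after plus-strand tags in the Activin ChIP library, 113 bp with DMSO and 92 bp with SB, and 58.0 bp after them in DMSO input and 50.5 bp in SB input, all counted in the same window around the pileup.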

How the data were processed

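The authors aligned the tags, called peaks with MACS against input at the same settings for each treatment, and deposited the aligned tags of 35 bp with position and strand and 3 lists that hold for each peak its position and its count of tags. For the aligner and the MACS version, nothing is given in the sources used here. The labels name the mm9 build. The deposited peak counts were used only to choose members, to count SB peaks back and for peaks of at least 13 tags. Chromosome lengths of NCBIM37 held all tags except that a tag ended 2 bp past the end of chromosome 19, so NCBIM37 and GENCODE vM1 coding genes were used.

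Tags were counted with Python 3.11.15, numpy 2.4.6 and pandas 2.3.3 and scaled by all tags of the library; intervals came from scipy 1.17.1 and figures from matplotlib 3.10.9. The highest pileup was taken from the 3 ChIP libraries summed as CPM, with 1 tag per position and strand extended to 200 bp. GC scaling used the ratio of 2 libraries in windows of 500 bp outside regions, in steps of 2.5 points. Words were matched exactly on both strands. A start site is that of any coding transcript, and exons took precedence over introns.

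With 1 library per treatment and fraction, no test between treatments was run. Members, gene lists and words were chosen with earlier results of these data known. Named members were the 12 with the highest lower value of Activin and DMSO, the 5 highest and 5 lowest ratios of Activin to DMSO, all within 10 kb of a listed gene, the 3 on either side of the limit of the rule, and the 5 highest ratios of SB to DMSO; of these the Gm10094 member and repeated cases at a gene are not described singly, and 1 further result is not reported here. Sequences from chromosomes 8 and 18, untranslated regions and high-input members were not printed. Counting and calling were tested on simulated data. Alternatives covered duplicate tags, scaling, window, fragment shift, fold, peak size and interval length.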

Additional observations from a re-analysis of the deposited data

How the results depend on the processing

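Counts, sums and shares were recomputed with other settings. No paired analysis was possible because each treatment has 1 ChIP library and 1 input library, and for the same reason no replicate was left out. The number of members was 699 with peaks of at least 13 tags, 791 and 767 with intervals 25% narrower and wider, 786 with an overlap of 100 bp, 653 with no SB interval within 1 kb, and 666 without members that a listed SB peak reached. In 400 bp around the highest pileup, Activin was at least 1.5 times DMSO in 153 members and at most 1/1.5 of it in 125, and at 2-fold these counts were 26 and 3. The count of members with Activin at most 1/1.5 of DMSO was 50 with no SB interval within 1 kb and 49 without reached members, settings added after seeing the data. The summed ratio of SB to DMSO was 0.751 with 1 tag per position and strand, 0.721 in 400 bp and 0.739 with GC scaling. In settings added after seeing the data, it was 0.708 without the high-input members and 0.677 without reached members. With both kinds left out it was 0.589 (0.575 to 0.602). The share near start sites was 39.4% at 5 kb, CAGAC was in 79.5% within 250 bp of the pileup, and FoxH1 words, in settings added later, in 11.5% within 50 bp and in 21.7% of members with no SB interval within 1 kb. Members with SB at most 1/1.5 of DMSO numbered between 278, at 2-fold, and 455, in 400 bp. None of 65 named members crossed a ratio of 1 after a 1.5-fold call under the 5 counting and scaling settings. Ratios short of 1.5-fold were outside that check, and with GC scaling SB over DMSO at Smad6 went from 1.18 to 0.984. A call could be lost, as at the Klf2 start site, from 2.14 to 1.21 with GC scaling. Values left the main interval in 8 cases for Activin over DMSO, against 317 that stayed, and in 12 for SB over DMSO, against 313. Most members held fewer than 50 tags per library, so single ratios have wide intervals.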
